A study of Mus musculus with 2 samples.

Results

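The markers described here are genes that the intestinal epithelium is known to switch on in a fetal-like or regenerative state. They are *Ly6a*, *Clu*, *Anxa1*, *Anxa3*, *Il33*, *Il1rn*, *Msln*, *Gja1* and *Basp1*, named as a list and matched by gene symbol to the table of read counts. Of these 9 genes, 8 had a row among the 19294 genes of the table, and each of the 8 reached 10 counts in one or both libraries. *Basp1* had no row and was not analysed here. The table holds no count of 0, so a gene unread in one culture may have no row, and the direction of genes without a row is not known here. The mRNA-seq data came from mouse intestinal organoids (mIOs), with 1 control culture and 1 culture given DSS, both labelled day 4. Dextran sulfate sodium (DSS) is a sulfated polysaccharide that injures epithelium, and its concentration in the sequenced culture is not given in the sources used here. Both cultures carried the Lgr5-EGFP-IRES-creERT2 genotype, in which EGFP and a tamoxifen-inducible Cre are driven from the *Lgr5* locus, and both came from jejunal crypts grown in Matrigel in medium with EGF, Noggin and R-spondin. Organoids of this kind are grown from epithelium alone, without the immune, stromal and vascular cells of the intestine. Nothing in the labels says that the cultures came from separate animals.

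In the adult intestine, Lgr5+ stem cells at the crypt base renew the epithelium. After injury, part of the epithelium can leave this program and take up genes of the fetal gut, with *Ly6a* (Sca-1), *Clu* and *Anxa1* among the usual markers, and the transcriptional coactivator YAP, acting through TEAD factors, is known to take part in this switch. The markers encode proteins of different kinds, from secreted and nuclear cytokine-family proteins (*Il33*, *Il1rn*) and a secreted chaperone (*Clu*) to membrane-binding annexins (*Anxa1*, *Anxa3*), lipid-anchored surface proteins (*Ly6a*, *Msln*), a gap junction channel (*Gja1*) and an inner membrane protein (*Basp1*).

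Values are read counts, TMM-scaled CPM (reads scaled to a common library size) and log2 ratios of the scaled counts, in which a value above 0 means a higher level in DSS. Each ratio is given with a 95% interval (exact Clopper-Pearson) that reflects counting alone. Each condition was 1 library, so no replicate spread was available and no ratio was tested. In such bulk libraries, fewer cells of a type and less RNA per cell cannot be told apart. The markers did not move together. For 6 of the 8 listed markers the log2 ratio was above 0 and for 2 it was below 0, with ratios from -4.70 to 4.22 and the same signs under every scaling run. *Il33*, *Msln* and *Il1rn* were at 2 or more, where 7.87% of the 17235 genes with at least 10 counts in a library also lay, and *Gja1* was at -2 or less, where 6.54% of those genes lay. With the smaller line of 1, *Anxa1* joined the higher genes, for 4 of 8 against 19.3% of the 17235 genes, and 1 of 8 was at -1 or less, against 20.2%. The median log2 ratio was 0.90 over the 8 markers and -0.06 over the 17235 genes.

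**Figure D1:**
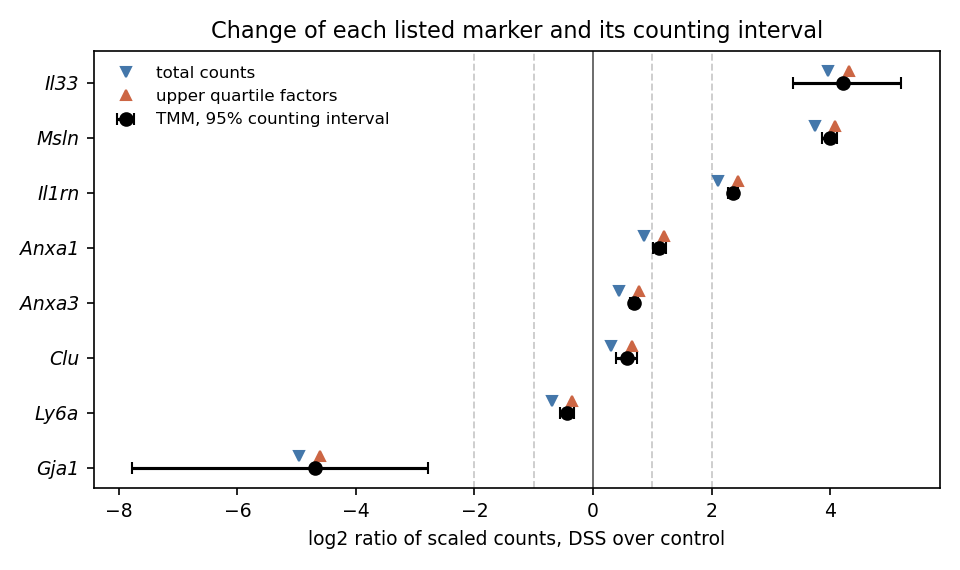
Log2 ratio of scaled counts, DSS over control, for the 8 listed markers (black points, TMM scaling, with 95% counting intervals), and the same ratio with total counts (blue) or upper quartile factors (orange), with dashed lines at log2 ratios of 1 and 2 in either direction. *Il33*, *Msln* and *Il1rn* lie right of 2, *Gja1* lies left of -2 with a wide interval, and the other 4 markers lie between -0.70 and 1.21 in all 3 scalings.

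**Figure D2:**
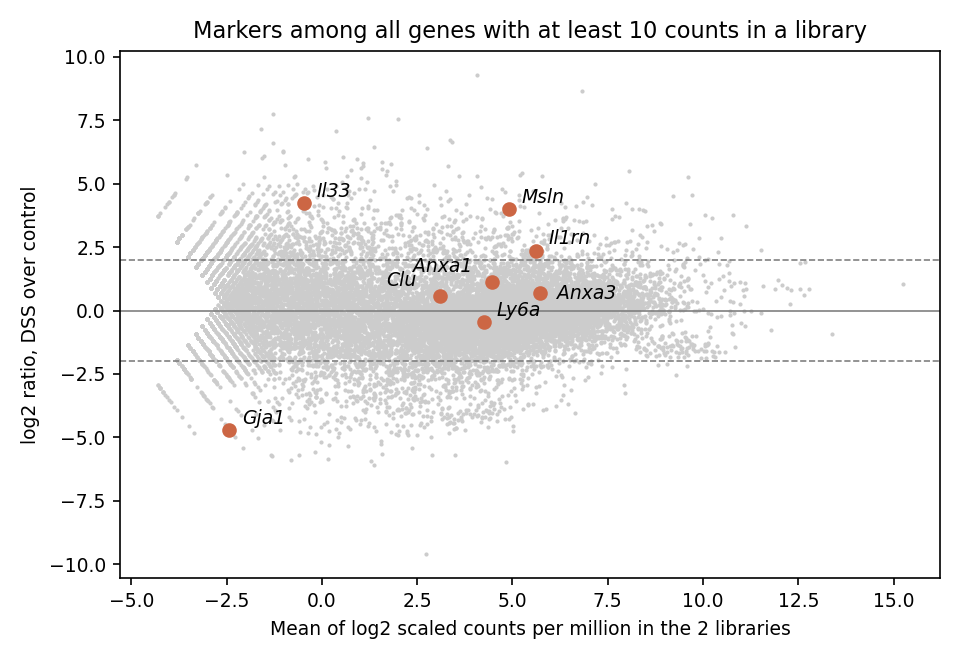
Log2 ratio, DSS over control, against the mean log2 CPM of the 2 libraries for the 17235 genes with at least 10 counts in a library (grey), with the 8 listed markers in orange. *Msln* and *Il33* lie near the upper edge of the cloud, *Gja1* near its lower edge at low abundance, and *Clu*, *Anxa3* and *Ly6a* lie inside it.

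The sequences upstream of the markers were examined for short motifs. RefSeq promoter windows on GRCm38.p6, which run from 250 bases before to 50 bases after a start, were given for *Anxa1*, *Il33*, *Il1rn*, *Gja1* and *Basp1*. These were 8 windows in all, with 2 starts for *Il33* and 3 for *Il1rn*. No window was given for *Ly6a*, *Clu*, *Anxa3* and *Msln*. *Gja1* was thus the only marker with a ratio below 0 that had a window, so the sides of 0 could not be compared as groups. Both strands were searched for GGAATG, the letters of the TEAD motif, and for TGANTCA, those of the AP-1 motif. A short form of the NF-κB motif, GGANTTTCC, and the TATA box, TATAAA, were searched in the same way. The 250 bases upstream of 6 starts are shown 5′ to 3′ on the strand of the gene, with the motif matches in capitals. The first 5 belong to genes with ratios above 0 and the last to *Gja1*, so that shared and unshared matches can be seen.

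Anxa1, minus strand, chr19:20390672-20390921: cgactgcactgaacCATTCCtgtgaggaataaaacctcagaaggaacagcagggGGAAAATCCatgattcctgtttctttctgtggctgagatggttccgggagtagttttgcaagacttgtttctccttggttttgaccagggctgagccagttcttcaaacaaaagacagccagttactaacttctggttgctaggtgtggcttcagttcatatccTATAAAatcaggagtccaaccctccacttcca
Il33, start 1, plus strand, chr19:29924863-29925112: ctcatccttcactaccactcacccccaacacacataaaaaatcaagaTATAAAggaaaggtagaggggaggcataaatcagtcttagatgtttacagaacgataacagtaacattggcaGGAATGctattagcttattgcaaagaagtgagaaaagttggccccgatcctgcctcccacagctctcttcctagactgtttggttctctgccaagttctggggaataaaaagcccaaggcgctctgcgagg
Il33, start 2, plus strand, chr19:29945540-29945789: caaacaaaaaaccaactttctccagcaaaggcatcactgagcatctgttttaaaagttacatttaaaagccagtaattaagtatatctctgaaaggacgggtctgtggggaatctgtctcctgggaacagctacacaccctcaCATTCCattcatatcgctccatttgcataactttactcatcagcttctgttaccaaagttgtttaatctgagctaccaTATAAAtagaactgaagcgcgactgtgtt
Il1rn, start 1, plus strand, chr2:24336610-24336859: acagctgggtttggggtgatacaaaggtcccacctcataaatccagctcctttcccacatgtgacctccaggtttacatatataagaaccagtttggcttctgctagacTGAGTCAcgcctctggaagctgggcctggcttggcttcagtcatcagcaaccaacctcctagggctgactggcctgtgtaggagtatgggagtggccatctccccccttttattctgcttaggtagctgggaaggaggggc
Il1rn, start 3, plus strand, chr2:24345121-24345370: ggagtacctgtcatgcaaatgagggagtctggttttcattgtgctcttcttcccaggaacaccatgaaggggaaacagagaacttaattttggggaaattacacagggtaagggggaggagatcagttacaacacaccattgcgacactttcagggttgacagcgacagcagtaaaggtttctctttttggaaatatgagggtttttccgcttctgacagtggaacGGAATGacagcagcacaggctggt
Gja1, plus strand, chr10:56377050-56377299: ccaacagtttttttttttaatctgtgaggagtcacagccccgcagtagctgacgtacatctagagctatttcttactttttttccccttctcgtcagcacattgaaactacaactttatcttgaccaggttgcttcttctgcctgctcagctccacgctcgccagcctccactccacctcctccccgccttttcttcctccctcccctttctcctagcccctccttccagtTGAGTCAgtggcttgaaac

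The TEAD letters occurred upstream of *Anxa1*, of both starts of *Il33* and of the third start of *Il1rn*, and in 14.7% of all 32851 promoter windows. They did not occur in the window of *Gja1*. The AP-1 letters occurred at the first start of *Il1rn* and in *Gja1*, from -19 to -13 with the first transcribed base at 0, and in 7.81% of all windows, so *Il1rn* and *Gja1*, on opposite sides of 0, both held them. The NF-κB letters occurred in *Anxa1* and in 1.25% of all windows. A TATA box began at -32 in *Anxa1*, at -29 from start 2 of *Il33* and at -203 from its start 1, and 13.6% of all windows held these letters. In *Anxa1* the TEAD letters began at -236 and the NF-κB letters at -196, and no matches overlapped in any window. Start 2 of *Il1rn* and the window of *Basp1* held none of the 4 motifs, and start 3 of *Il1rn* held a TATA box match after its start, on the other strand. The windows of starts 2 and 3 of *Il1rn* overlap each other, and the counts do not tell which start was used. A match describes the letters and not a binding site.

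**Figure D3:**
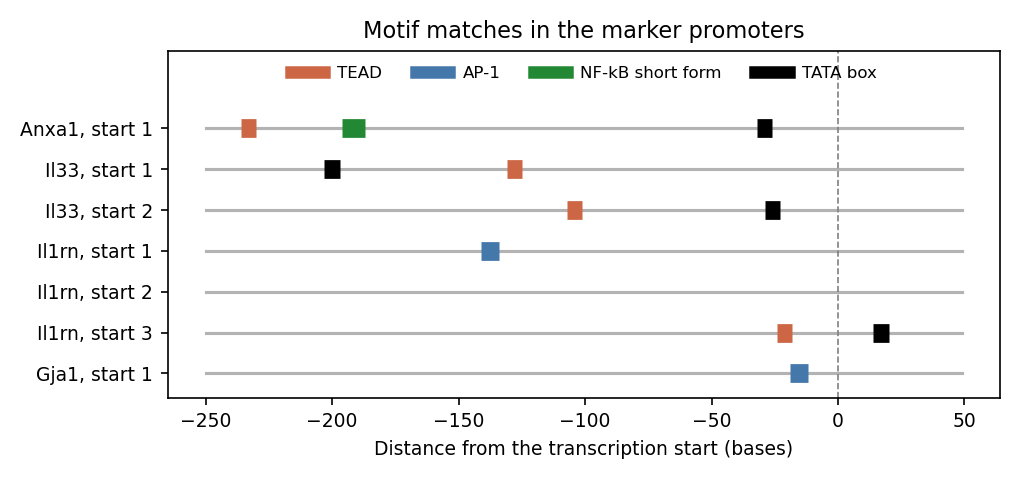
Positions of motif matches in the promoter windows of the listed markers, as distance in bases from the transcription start (dashed line), with grey lines for the windows from 250 bases before to 50 bases after each start. TEAD letters lie in the windows of *Anxa1*, *Il33* and *Il1rn*, and the window of *Gja1* holds an AP-1 match at -19.

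Of the 8, *Il33* had the largest ratio. Interleukin-33 is a nuclear protein of barrier cells that acts as an alarm signal when released and binds the receptor ST2, encoded by *Il1rl1*. *Il33* (NCBI 77125) was counted 12 times in control and 171 times in DSS, or 0.168 and 3.13 CPM. This gave a log2 ratio of 4.22 (95% interval 3.38 to 5.20), at rank 149 from the highest of the 17235 genes. *Il33* was nearly unread in the control culture and low, though well counted, in the DSS culture. The gene for its receptor, *Il1rl1*, had no row in the table.

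*Il1rn* (NCBI 16181) encodes the receptor antagonist that occupies the IL-1 receptor without signaling. Its counts were 1567 in control and 6140 in DSS, or 21.9 and 112 CPM, for a log2 ratio of 2.36 (2.28 to 2.44). The DSS culture thus held 5.13 times the scaled level of the control culture. The ratio of *Il33* counts to *Il1rn* counts within a library does not depend on scaling. It was 0.00766 in control and 0.0278 in DSS, a log2 change of 1.86 with an exact interval from 1.02 to 2.85, so *Il33* changed more than *Il1rn* beyond counting error.

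Of the 10 ligands of the IL-1 family that were listed for context, 3 had rows, namely *Il33*, *Il1rn* and *Il18*, and each was at a log2 ratio of 2 or more, where 7.87% of all 17235 genes lay. Of these 3, *Il33* and *Il1rn* are the markers already counted above. *Il18*, an epithelial cytokine stored as a precursor, was counted 407 times in control and 3137 times in DSS, at a log2 ratio of 3.33. The agonists *Il1a* and *Il1b* and the *Il36* genes had no row. Among the receptors and adaptors, 6 of 10 genes had rows, with 5 ratios above 0, where 8272 of all 17235 genes lay, and a median of 0.71. *Il1r1*, the receptor that the antagonist occupies, had 10 and 56 counts in control and DSS, at a log2 ratio of 2.87 (1.89 to 4.01). *Il18r1*, a chain of the receptor for IL-18, had 54 and 307 counts, at 2.90. *Il1rap*, the shared accessory chain of the IL-1 and IL-33 receptors, had 937 and 382 counts, at -0.91 (-1.08 to -0.73). The inhibitory receptor *Sigirr* was at 0.86, the decoy *Il18bp* at 0.57 and the adaptor *Myd88* at 0.32. The ligands and *Il1rap* thus had ratios of opposite sign, under every scaling run.

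*Msln* (NCBI 56047) encodes mesothelin, a lipid-anchored surface protein that binds the mucin MUC16 and is best known from mesothelium. Its counts were 544 in control and 6627 in DSS, or 7.60 and 121 CPM. The log2 ratio was 4.00 (3.87 to 4.12), and the interval of *Msln* lay inside the wider one of *Il33*, so the order of these ratios was within counting error. *Msln* stood at rank 195 from the highest of the 17235 genes. Its relative *Mslnl* had 30 and 26 counts, at 0.18 (-0.63 to 0.99) and at -0.07 with total counts, so that its direction was not determined, and *Muc16* had no row. Of 6 mesothelial markers, *Wt1*, *Gpm6a* and *Bnc1* had no row. The other 3 together went from 38.2 CPM in control to 19.9 CPM in DSS, since *Upk3b*, with the most reads of them, had 2669 and 930 counts, at -1.13. *Upk1b* had 34 and 106 counts, at 2.03, and *Lrrn4* had 33 and 54, at 1.10. The lower sum in DSS thus follows *Upk3b*, which held 37.3 of the 38.2 CPM in control, while *Upk1b* and *Lrrn4* were higher in DSS, as *Msln* was. The part of mesothelial cells in the ratio of *Msln* was not tested.

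*Anxa1* (NCBI 16952) and *Anxa3* (NCBI 11745) belong to the annexins, which bind membrane phospholipids in the presence of calcium. Annexin A1 is also a ligand of formyl peptide receptors and limits inflammation. *Anxa1* had 1083 counts in control and 1792 in DSS, or 15.1 and 32.8 CPM, at a log2 ratio of 1.12 (1.01 to 1.23). Scaled by total counts it was at 0.86, below the line of 1. *Anxa3* had 2991 and 3690 counts, or 41.8 and 67.5 CPM, at 0.69 (0.62 to 0.76). The ratio of *Anxa1* counts to *Anxa3* counts went from 0.362 to 0.486, a log2 change of 0.42 with an interval from 0.29 to 0.55. *Anxa1* therefore changed more than *Anxa3*, by a factor of 1.34 that does not depend on scaling.

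Most of the annexin family lay on the same side of 0. All 12 annexin genes on the list had rows, and 11 had a ratio above 0, against 8272 of all 17235 genes. When scaled by total counts 10 annexins were above 0, since *Anxa6* was then below 0. The median of the annexins was 0.62. *Anxa10*, which is best known from the stomach, was at 5.30, with 192 counts in control and 5797 in DSS. *Anxa13*, an annexin of enterocytes, was at 1.90, with 12265 and 34987 counts, and *Anxa8* was at 1.40, with 77 and 155. The partners of annexins among the S100 proteins also had ratios above 0, with *S100a6* at 2.60, *S100a11* at 1.11 and *S100a10* at 0.71. The receptor genes *Fpr1* and *Fpr2* had no row.

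*Clu* (NCBI 12759) encodes clusterin, a secreted chaperone that marks the revival stem cells described after irradiation of the mouse intestine. It had 507 counts in control and 574 in DSS, or 7.08 and 10.5 CPM, at a log2 ratio of 0.57 (0.39 to 0.74). The ratio was 0.31 when scaled by total counts, so its size depended on the scaling and its sign did not. *Clu* stood at the percentile 71.1 of the 17235 genes. Of the clusterin receptors, *Lrp8* was at -1.26, *Vldlr* at -0.03 (-0.09 to 0.03), and *Lrp2* had no row.

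*Ly6a* (NCBI 110454) encodes Sca-1, the lipid-anchored surface protein used to mark fetal-like epithelium during repair. Its counts were 1580 in control and 888 in DSS, or 22.1 and 16.2 CPM. The log2 ratio was -0.44 (-0.56 to -0.32) and ran from -0.70 to -0.35 over the other scalings, the prior count and thinning. *Ly6a* was thus lower in the DSS culture, at the percentile 35.3 of the 17235 genes, and it was read clearly in both cultures. Of the distinct runs of 50 bases in its annotated transcript, 91 of 906 also occurred in transcripts of other genes, with *Ly6c1* and *Ly6i* among them, so that its count can include or lose reads of near-identical relatives.

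The family of *Ly6a* went both ways. Of 20 Ly6 and related genes, 14 had rows and 13 had at least 10 counts in a library. Of the 13, 10 had ratios above 0, against 8272 of all 17235 genes, and 3 had ratios below 0. These signs held under every scaling run, and the median of the family was 1.47. The largest changes were those of *Ly6m*, from 47 to 1232 counts at 5.10, *Psca*, from 73 to 1196 at 4.42, and *Ly6g6c*, from 23 to 287 at 4.03. *Ly6e*, the relative with the most reads in control, had 21156 and 5011 counts, at -1.69. In DSS the most reads were those of *Lypd8*, named after its values were seen, with 6370 and 18677 counts, at 1.94. *Ly6c1*, singled out after its values were seen because it shares runs with *Ly6a*, had 118 and 13 counts, at -2.79. The ratio of *Ly6a* counts to *Ly6e* counts went from 0.0747 to 0.177, a log2 change of 1.25 with an interval from 1.12 to 1.37, so *Ly6a* was lowered less than *Ly6e*.

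*Gja1* (NCBI 14609) encodes a connexin that forms gap junction channels between neighbouring cells and is a marker of fetal intestinal spheroids. It had 68 counts in control and 2 counts in DSS, or 0.95 and 0.0366 CPM, at a log2 ratio of -4.70. The 95% interval ran from -7.77 to -2.79, the widest of the 8, because the DSS value rests on 2 counts, and a prior count of 2 brought the ratio to -3.78. The gene was low in the control culture and close to unread in the DSS culture. With a minimum of 10 counts in both libraries it would leave the comparison. Of 16 connexin genes, 9 had rows and 8 reached 10 counts in a library, of which 5 were below 0, or 6 when scaled by total counts, under which *Gjd3* was below 0 too. *Gjb2* went from 2192 to 792 counts, at -1.08. The median of the connexins, *Gja1* included, was -0.60, but it moved with the count minimum, to -0.13 with none and -2.31 with 50 counts in a library. With 10 counts in both libraries 4 connexins were left, 2 on either side of 0, so the measured connexins showed no settled direction. Mesenchymal cells can also make this connexin, and the sum of the 3 mesenchymal markers that reached 10 counts was 1.40 CPM in control and 1.98 CPM in DSS. In control and DSS, *Acta2* had 4 and 20 counts, *Col1a1* 29 and 24, and *Pdgfrb* 67 and 64. The part of mesenchymal cells in the ratio of *Gja1* was not tested. Among the relatives of *Basp1*, a myristoylated protein of the inner membrane face, *Marcks* was at -1.42 and *Marcksl1* at -1.01, and *Gap43* had no row.

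Levels of different genes were compared per kb of transcript (CPM per kb), with lengths from GENCODE vM21. In control, *Anxa3* at 26.2 CPM per kb and *Ly6a* at 23.1 were the most abundant of the 8, followed by *Il1rn* at 11, *Anxa1* at 9.04, *Clu* at 3.91, *Msln* at 3.61, *Gja1* at 0.309 and *Il33* at 0.0660. The counting intervals of *Clu*, from 3.58 to 4.27, and of *Msln*, from 3.31 to 3.93, overlapped, so the order of these neighbours was within counting error. In DSS, *Msln* at 57.6 CPM per kb and *Il1rn* at 56.5 came first. They were followed by *Anxa3* at 42.3, *Anxa1* at 19.6, *Ly6a* at 17.0, *Clu* at 5.80, *Il33* at 1.23 and *Gja1* at 0.0119. The annotated transcripts of *Il1rn* run from 728 to 2474 bases, which would put its level anywhere from 8.85 to 30.1 CPM per kb in control and from 45.4 to 154 in DSS. Its place in either order depends on that length, and with the median length its DSS interval, from 55.1 to 58, overlapped that of *Msln*, from 56.2 to 59. Apart from *Il1rn*, *Ly6a* was above *Anxa1* and *Msln* in control and below both in DSS.

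**Figure D4:**
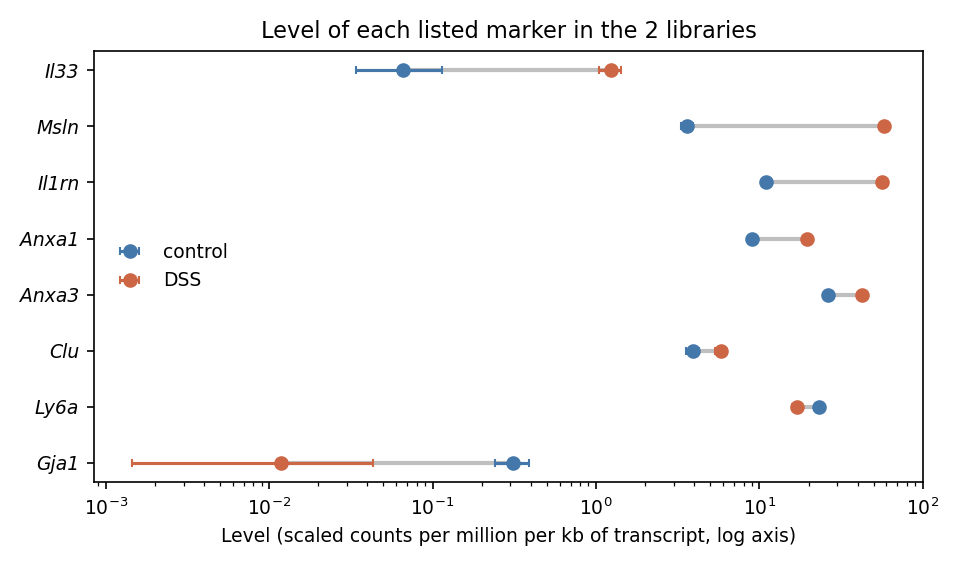
Level of each listed marker in CPM per kb of transcript (log axis) in the control (blue) and DSS (orange) library, with exact Poisson 95% intervals that cover counting error. *Msln* and *Il1rn* end near 57 CPM per kb in DSS, *Il33* goes from 0.0660 to 1.23, and *Gja1* is at the bottom in DSS with 2 counts.

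Together the 8 markers took 117 CPM in control and 364 CPM in DSS, a log2 ratio of 1.64 (1.6 to 1.68). *Msln* and *Il1rn* made up 25.3% of these counts in control and 64.2% in DSS, so the sum mostly follows these genes.

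A wider hand-written list of 23 other fetal-like and regenerative genes had 21 rows, 20 of them with at least 10 counts in a library. Of these, 16 were above 0, against 8272 of all 17235 genes, and 4 were below 0, with a median of 1.09. When scaled by total counts 15 of the list were above 0, since *Krt7* was then below 0. The largest changes were those of *Anxa10*, of *Ereg*, an EGF receptor ligand that went from 49 to 586 counts at 3.97, and of *Ly6d*, from 294 to 2956 counts at 3.72. *Areg*, another EGF receptor ligand, was at 1.01 with 13368 and 20626 counts. *Spp1* and *Ptgs2* had no row. *Hmga2*, a chromatin protein of fetal and growing tissues singled out after its values were seen, was the member of this list at -2 or less, with 3676 and 392 counts at -2.84. Also below 0, and named after their values were seen, were *Tubb6*, with 31 and 6 counts at -1.98, *Cd44*, with 3607 and 1126 at -1.29, and *Phlda1*, with 4365 and 2296 at -0.54. At 1 or more were 11 of the 20 genes, against 19.3% of all 17235 genes, and at -1 or less were 3 of the 20, against 20.2%. Several annexins, *S100a6* and *Ly6d* stand in more than 1 of the lists, so the lists are not independent.

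Of 15 YAP targets, 13 had rows, with 3 above 0 (4 with upper quartile factors, under which *Ccn2* was above 0), 10 below 0 and a median of -0.36. Below 0 lay 8963 of all 17235 genes, whose median was -0.06. At -1 or less were 3 of the 13 targets, against 20.2% of those genes, and *Ccn2* was at -0.05 (-0.30 to 0.20). The YAP target *Ccn1* had 8013 and 3575 counts, at -0.78. *Arhgef17* was at -3.69, with 1285 and 76 counts, *Ptpn14* at -3.44, with 611 and 43, and *Lats2* at 1.44, with 399 and 829. The median of the YAP targets thus lay on the other side of 0 from that of the wider list, under every scaling run. Which list a gene was placed in was a choice made by hand, and the part of YAP in these ratios was not tested.

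**Figure D5:**
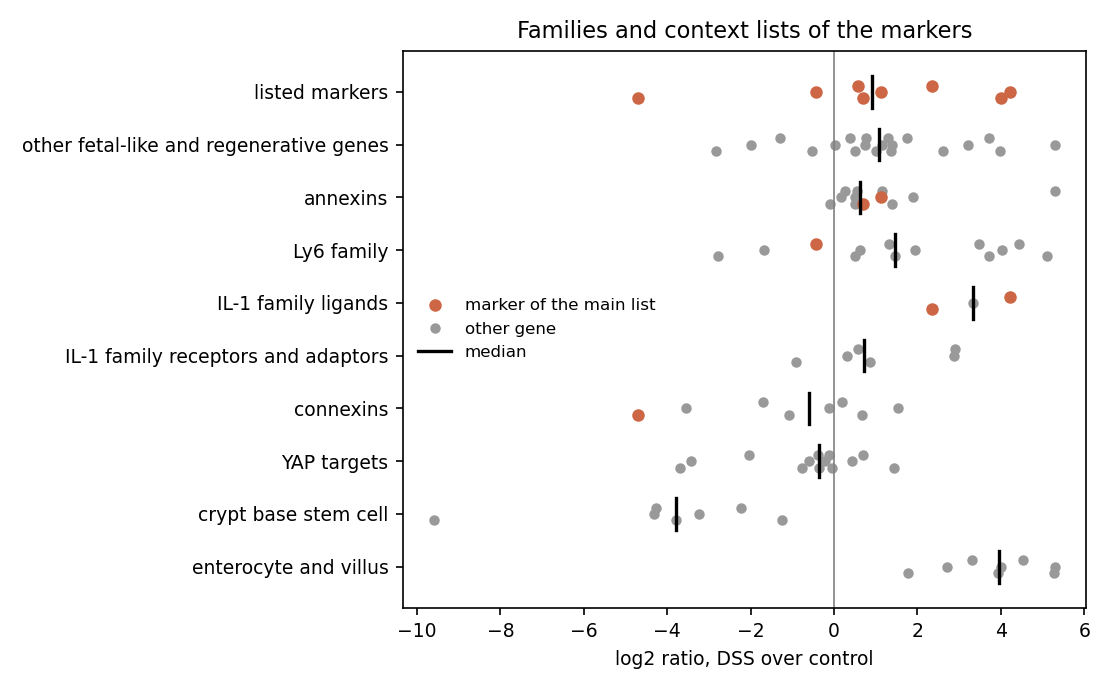
Log2 ratios, DSS over control, of the listed markers, their families and context lists, for genes with at least 10 counts in a library, with the listed markers in orange, other genes in grey and medians as black bars. The annexins and the IL-1 family ligands lie mostly right of 0, the Ly6 family and the connexins spread to both sides, and the crypt base and villus lists lie on opposite sides.

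The cultures were labelled as intestinal stem cells but held the RNA of several epithelial cell types, and the markers of these types differed between the cultures. The 8 epithelial markers together went from 6037 to 9291 CPM. *Epcam*, *Krt18* and *Cdh1* were at 0.03, 0.04 and -0.03 with signs that depended on the scaling, *Vil1*, *Krt19* and *Krt8* were at 1.25, 1.15 and 0.84, and the transcription factors *Cdx1* and *Cdx2* were at -0.61 and -1.35. All 7 crypt base stem cell markers were below 0, their sum going from 1687 to 230 CPM, with *Lgr5* at -3.78. All 8 enterocyte and villus markers were above 0, their sum going from 1574 to 20530 CPM, with *Krt20* at 3.99 and *Ada* at 5.30. The 6 goblet cell markers went from 561 to 10230 CPM and the 5 Paneth cell markers from 295 to 137 CPM. The part of these shifts in the ratios of the markers was not tested. Markers of non-epithelial cells had fewer reads than the epithelial markers but were not all near unread. In control and DSS, *Itgam*, an immune marker, had 375 and 631 counts, and *S100b*, a glial marker, had 116 and 488. Of 9 mesenchymal markers, *Col1a2*, *Col3a1*, *Dcn*, *Lum* and *Myh11* had no row. Of 6 endothelial markers, *Cdh5* and *Kdr* had no row and the sum of the other 4 went from 1.10 to 3.70 CPM, with *Tek* at 12 and 97 counts, *Pecam1* at 12 and 55, *Tie1* at 5 and 29 and, in the other direction, *Vwf* at 50 and 21. Endothelium can also express *Il33*, and the part of these reads in the ratio of *Il33* was not tested. Of 6 immune markers, *Ptprc*, *Cd3e* and *Adgre1* had no row, and *Itgam* made up most of the sum, which went from 5.37 to 11.9 CPM. Of 4 glial markers, *Sox10* and *Gfap* had no row, and the sum went from 2.91 to 9.20 CPM, mostly *S100b*.

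The depth was 65493032 counts in control and 59746968 in DSS. Scaling by total counts moved the median of all genes from -0.06 to -0.31, and every ratio moved by the same amount. Of the genes past 2 in either direction, 54.6% were higher in DSS with TMM factors and 41.7% with total counts. Of the 4 listed markers past 2 in either direction, 3 were higher in DSS under both.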

How the data were processed

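Poly(A) RNA of mIOs was sequenced as 1 library per condition, control and DSS. Values as deposited are raw counts of reads for each gene, which the authors list by NCBI identifier and symbol. HISAT2 and StringTie are named in the submitters' processing notes, without versions or roles, and the genome build, the annotation and the use of strand in counting are not given in the sources used here. Per-sample files carry FPKM in their names, but their values equal these counts for all 19294 genes, so no FPKM value was used.

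Scaling used the TMM factors of edgeR 4.0.16 (R 4.3.3), which were 1.09 for control and 0.915 for DSS. Ratios, exact Clopper-Pearson intervals, Poisson intervals of levels and conditional odds ratios for pairs of genes were computed in Python 3.11.15 with scipy 1.17.1. These intervals cover counting error only, since reads without molecular identifiers are not independent molecules, and tests were not run because each group was 1 library. The computation was tested on simulated counts. Lengths were medians over the GENCODE vM21 transcripts tied to the RefSeq identifiers of the table. Promoters came from RefSeq on GRCm38.p6, and no exon of another gene in the basic GENCODE vM21 set overlapped those of the 8 markers. Runs of 50 bases shared with other genes were counted over all GENCODE vM21 transcripts.

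The markers and context lists were chosen with earlier results of these data known. Genes were named as the 9 markers, all genes of lists of 10 or fewer, and of longer lists the 3 with the largest change among those with at least 50 counts in a library, with *Spp1*, *Areg* and *Ccn1*. Some genes under this rule are not reported here. *Ly6c1*, *Ly6i*, *Lypd8*, *Hmga2*, *Tubb6*, *Cd44*, *Phlda1*, *Ptgs2* and the genes named for a change of sign with the scaling fell outside this rule. They were added after their values were seen, and other genes of longer lists are named only as lacking a row. Ratios were recomputed with other scalings (size factors of DESeq2 1.42.0, upper quartiles, or total counts), with the control library thinned, with 2 added to each count, with other count minimums and with list means.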

Additional observations from a re-analysis of the deposited data

How the results depend on the processing

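Each of the 8 listed markers kept the sign of its ratio under the other scalings, the prior count and thinning. With total counts the median over the markers was 0.65 in place of 0.90, by the construction of that setting, which lowers every ratio alike. With at least 10 counts in both libraries *Gja1* left the set, so 0 markers were at -2 or less, 0 were at -1 or less, and the median was 1.12. The counts of markers at 2 or more and at 1 or more were within 1.5 times their values in every alternative run, although *Anxa1* passed below 1 with total counts. The 3 changes in the ratio of a pair of genes stayed inside their intervals with the prior count. The number of all genes at 2 or more was 1356, and 917 with 10 counts in both libraries, and at -2 or less it was 1127 and 899. The depth sets the precision of *Il33* in control (12 counts) and of *Gja1* in DSS (2 counts). Variation between cultures was not measured, so no ratio has a replicate check. A comparison on FPKM values was not run, since the files hold counts.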
